A study of Homo sapiens with 64 samples.

Results

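Loss of a metabolic RNA label after knockdown of fibrillarin (FBL) was followed in 12 SLAM-seq libraries of the 64 libraries of the series. They were all the SLAM-seq libraries whose files are named for 0, 6 or 12 h of chase, and they form 6 groups of 2. With a small interfering RNA against FBL (siFBL) there were 2 libraries at each of 0, 6 and 12 h, and with a control siRNA (siCTRL) there were also 2 at each of 0, 6 and 12 h. All came from C4-2 cells, an androgen-independent human prostate cancer line. Per the labels' protocols, cells of both siRNAs were kept in 100 µM 4-thiouridine for 24 h, the label was replaced by 10 mM unmodified uridine at 0 h, and RNA was collected afterwards. Thiol groups were alkylated with iodoacetamide before 3′ end libraries were made from polyadenylated RNA. The hour was taken from the file name, which matches the file's own header in 16 of 16 SLAM-seq files; it differs from the hour in the sample label in 8 of the 12 libraries. Nothing in the labels says that replicates were separate cultures, so p-values measure the spread between these samples, which may be technical.

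Fibrillarin is the enzyme that places 2′-O-methyl groups on ribosomal RNA, as part of the box C/D small nucleolar ribonucleoprotein (snoRNP), whose guide RNA chooses the sites. NOP56, NOP58 and SNU13 are its partner proteins in the particle, which works mainly in the nucleolus. In SLAM-seq, 4-thiouridine taken up into new RNA is alkylated and then read as C where the gene has T, so the share of T positions read as C (the T>C rate) shows how much of a gene's RNA still carries the label. During the chase the rate of a gene falls both when labelled RNA is degraded and when unlabelled RNA is made, and the rate alone cannot tell these apart. The study asked, as far as its design text states it, whether FBL alters the stability of mRNAs.

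Libraries held 14.3 to 55.1 mega (M) mapped reads and 230.2 to 894.4 M sequenced T positions over the chosen 3′ intervals, 1 interval for each gene name. Of 31796 gene names, 9855 had at least 2000 T positions on average and at least 200 in every library, and these were tested. In the FBL interval itself reads were few. With siFBL it held 0 and 0 reads at 0 h, 0 and 2 at 6 h, and 1 and 0 at 12 h, against 29 and 41, 35 and 54, and 2 and 28 reads with siCTRL. Reads over FBL were thus nearly absent from the siFBL libraries, with 1 siCTRL library at 12 h equally low, and no label loss could be measured for FBL. Summed levels of 20 prostate luminal markers ran from 3646 to 4232 RPM (reads per M mapped reads) with siFBL and from 2956 to 3767 with siCTRL, with 19 of 20 detected and NPY at 0.

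The label left both kinds of cells in the order of the file hours. The overall T>C rate of the siFBL libraries was 6.21% and 6.20% at 0 h, 2.89% and 2.85% at 6 h, and 1.624% and 1.573% at 12 h. The siCTRL libraries had 7.80% and 7.74% at 0 h, 3.80% and 3.71% at 6 h, and 2.146% and 2.099% at 12 h. The siFBL libraries therefore started with less label and lay below the siCTRL libraries at each hour, with no overlap.

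Set against the mean of its own 0 h libraries, the rate left at 6 h was 46.2% ± 0.410 with siFBL and 48.3% ± 0.878 with siCTRL (SD, n = 2 each). At 12 h it was 25.8% ± 0.585 with siFBL and 27.3% ± 0.426 with siCTRL (SD, n = 2 each). The siFBL libraries kept slightly less of the starting rate, with log2 differences of -0.06 at 6 h and -0.08 at 12 h, and the groups did not overlap. This difference was not tested; with 2 libraries against 2 the exact permutation test used for single values cannot give a two-sided p below 0.333. Because bulk RNA was measured, fewer labelled cells and less label per cell cannot be told apart.

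**Figure D1:**
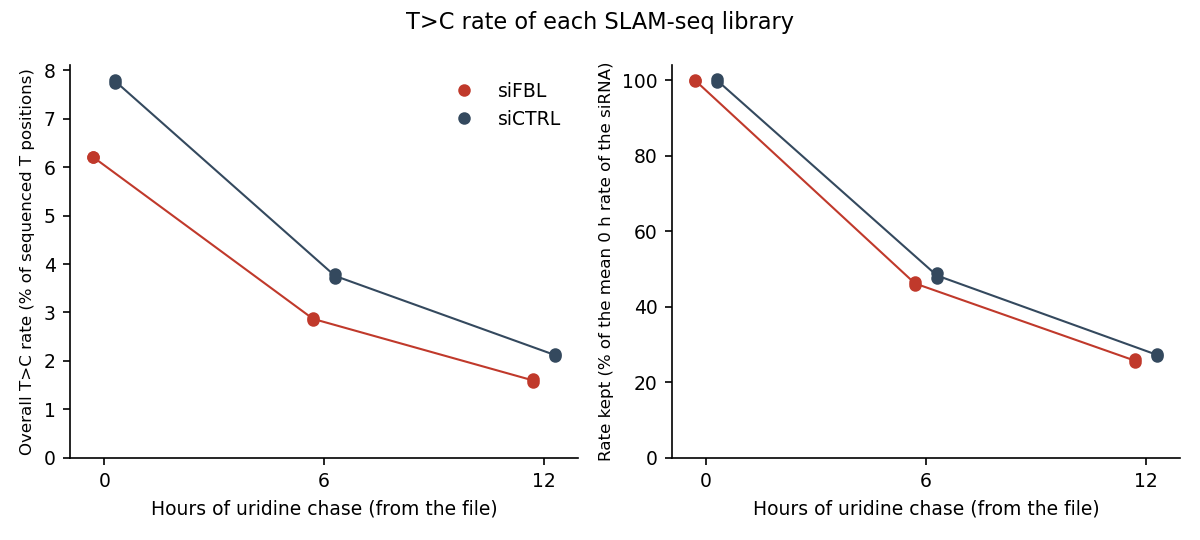
Overall T>C rate (percent of sequenced T positions, left) and the rate left as a percentage of the mean 0 h rate of the same siRNA (right), by hour of chase, with 1 point per library. The siFBL libraries start at 6.21% and 6.20%, below the siCTRL libraries at 7.80% and 7.74%, and keep 26.2% and 25.4% of this at 12 h, against 27.6% and 27.0% with siCTRL.

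For single genes the rate was divided by the overall rate of the library, so a shift shared by all genes is removed. The retention difference is the log2 change of this scaled rate since 0 h with siFBL minus the same change with siCTRL. A positive value means that the gene kept more label after FBL knockdown, relative to the rest of its library, and a negative value that it kept less. Each was tested with edgeR's quasi-likelihood test on the conversions, and a gene is called at a Benjamini-Hochberg adjusted p below 0.05. At both hours and at 0 h the same 0 h libraries enter, so the comparisons are not independent of each other.

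At 6 h, 10 of 9855 genes were called, or 0.101%. Retention rose in 4 of them (0.0406%) and fell in 6 (0.0609%), and the median over all genes was -0.01. Those with higher retention included NEAT1, the long noncoding RNA that scaffolds paraspeckles, FASTK, a protein of mitochondrial RNA metabolism, and FAM222B. The 6 with lower retention were ATF4, ACTG1, EID1, JTB, CHPT1 and GULP1. At an unadjusted p below 0.05 there were 419 genes, and the count of calls rested on every 0 h and 6 h library: leaving out any 1 of these 8 left 0 to 2 calls. Leaving out either siFBL library of 12 h gave 16 calls.

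NEAT1 had lost most of its T>C rate by 6 h in both groups, but less of it after FBL knockdown. Its T>C rate was 5.00% and 5.45% at 0 h and 1.67% and 1.66% at 6 h with siFBL, against 7.27% and 7.54%, and 1.21% and 1.13%, with siCTRL. The siFBL libraries thus began lower and were higher at 6 h, with no overlap at either hour. Retention was 1.07 higher on the log2 scale at 6 h (SE 0.11, edgeR adjusted p = 0.00243) and 0.50 higher at 12 h (SE 0.11, edgeR adjusted p = 0.0465). Mean NEAT1 read levels were 377.5, 291.8 and 305.8 RPM at 0, 6 and 12 h with siFBL, against 306.9, 334.8 and 323.8 with siCTRL. The interval spans chr11:65422798-65445540 on hg38, most of a transcript with no coding sequence, so its reads need not stem from a 3′ end. NEAT1 passed the threshold under 21 of 25 alternative settings at 6 h.

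FASTK and FAM222B also kept more label at 6 h. FASTK kept 52.6% and 52.8% of its 0 h rate with siFBL and 34.3% and 32.3% with siCTRL (0.73, SE 0.12, edgeR adjusted p = 0.0440). FAM222B was at 1.31% and 1.61% at 6 h with siFBL and at 0.529% and 0.518% with siCTRL (2.05, SE 0.30, edgeR adjusted p = 0.0299). It was the only gene called at 6 h that was not called at 12 h, where its difference was 0.06 and it had kept 1.83% with siFBL and 1.83% with siCTRL.

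ATF4 showed the reverse. ATF4 encodes the transcription factor of the integrated stress response, and its mRNA is a known target of nonsense-mediated decay because of its upstream reading frames. Its rate with siFBL was 7.25% and 7.45% at 0 h, 2.30% and 2.25% at 6 h, and 0.704% and 0.725% at 12 h. With siCTRL it was 9.15% and 9.16%, then 4.14% and 4.09%, then 1.78% and 1.88%. The siFBL libraries were below the siCTRL libraries at every hour, and kept 30.9% at 6 h and 9.72% at 12 h, against 44.9% and 20.0% with siCTRL. Retention was lower by -0.48 at 6 h (SE 0.070, edgeR adjusted p = 0.0299) and by -0.95 at 12 h (SE 0.070, edgeR adjusted p = 3.68e-05). Mean ATF4 read levels were 761.9, 907.2 and 985.4 RPM at 0, 6 and 12 h with siFBL, against 1029, 1006 and 980.9 with siCTRL.

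The mean read level of ATF4 was thus lower with siFBL at 0 h and level with siCTRL at 12 h. Multiplying the scaled rate and the read level gives a scaled amount of labelled RNA, relative to the rest of the library. For ATF4 its change from 0 to 12 h differed by -0.51 on the log2 scale. The scaled labelled amount thus also fell more with siFBL, by less than the scaled rate alone. The interval, chr22:39522603-39522683 on hg38, is 81 bases long and overlaps no coding sequence in GENCODE release 29. At 12 h ATF4 passed the threshold in 22 of 25 alternative settings.

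The other genes with lower retention at 6 h fell further at 12 h, apart from CHPT1. ACTG1, the cytoplasmic gamma-actin, was at 3.36% and 3.34% at 6 h with siFBL and at 5.97% and 5.85% with siCTRL (-0.41, SE 0.056, edgeR adjusted p = 0.0278). EID1, a regulator of the acetyltransferase p300, differed by -0.53 at 6 h (SE 0.081, edgeR adjusted p = 0.0299) and -0.85 at 12 h. JTB differed by -0.68 and -1.05, and GULP1, an adaptor for the uptake of dying cells, by -0.93 and -1.51. CHPT1, a choline phosphotransferase of phosphatidylcholine synthesis, differed by -0.67 and -0.59. Its scaled rate at 0 h was also higher with siFBL (0.57, edgeR adjusted p = 0.00323), and with siCTRL its rate stood above the 0 h value at 6 h, at 122.5% and 121.3% of it.

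**Figure D2:**
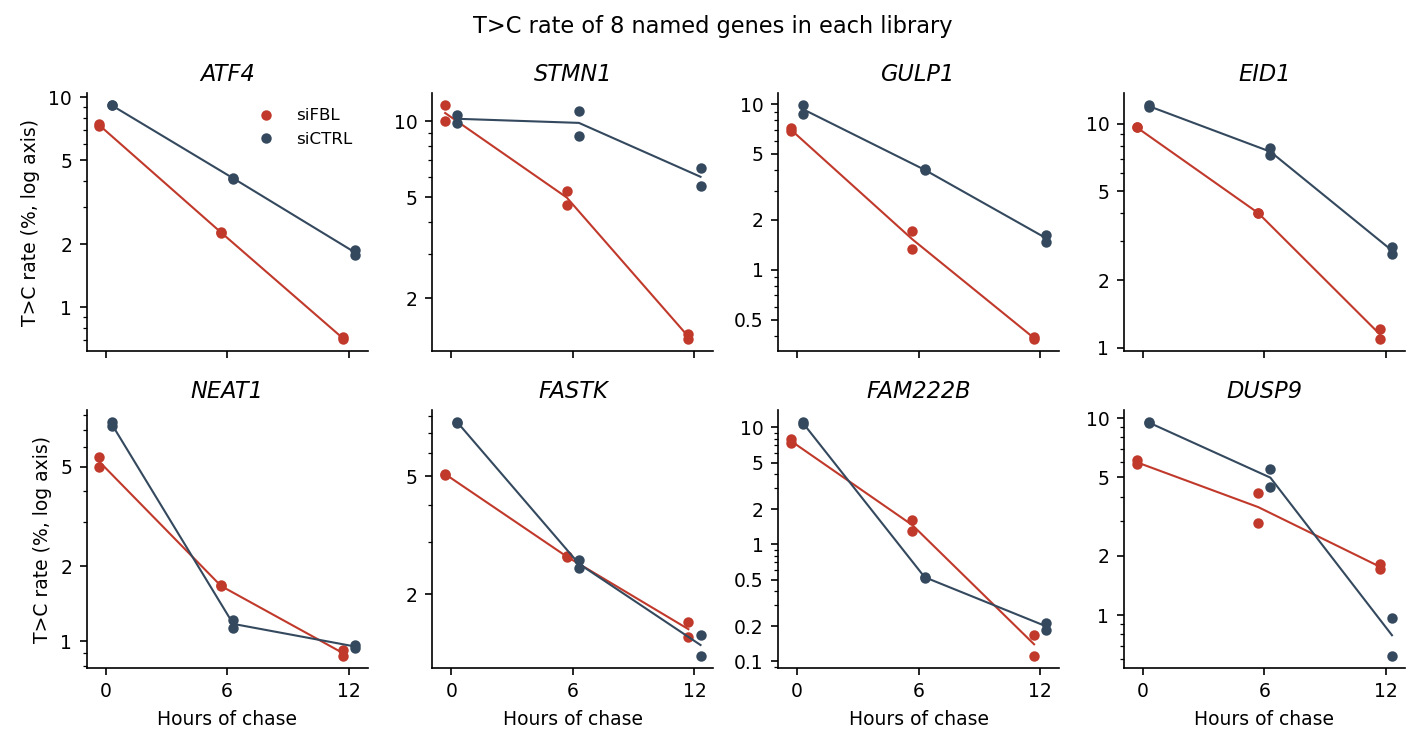
T>C rate (percent of T positions, log axis) by hour of chase for 8 genes called at 6 or 12 h, with 1 point per library and a line through the group means; points are set apart sideways for visibility. ATF4 separates downwards with siFBL, to 0.704% and 0.725% at 12 h against 1.78% and 1.88%, while NEAT1 lies higher with siFBL at 6 h, at 1.67% and 1.66% against 1.21% and 1.13%.

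At 12 h, 135 of 9855 genes were called, or 1.37%. Retention was higher in 36 (0.365%) and lower in 99 (1%), against a median of 0.00 over all genes, of which 4905 were below 0 and 4950 above. Among the 99, the median rate kept was 10.6% with siFBL and 22.6% with siCTRL; among the 36 it was 24.5% with siFBL and 11.0% with siCTRL; over all genes it was 11.1% with siFBL and 11.7% with siCTRL. Of the genes called at 6 h, 9 were also called at 12 h, all in the same direction, 3 higher and 6 lower. At an unadjusted p below 0.05 there were 1377 genes. Scaling decides part of the balance: without division by the overall rate 21 genes were higher and 152 lower, and with division by the median gene rate 38 were higher and 94 lower. Of the 135 genes, 11 were also called at 0 h, where 0.446% of all genes were. The scaled rate at 0 h was higher with siFBL in 56 of the 99, against 3333 of all 9855 genes. It was lower in 31 of the 36, against 6522 of all. The 0 h rate is a term of the retention difference, so nothing is read from this.

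The number of calls at 12 h depended on single libraries. It was 27 and 30 without siCTRL replicate 1 or 2 of 0 h, 39 and 37 without siFBL replicate 1 or 2 of 0 h, and 76 and 75 without siCTRL replicate 1 or 2 of 6 h. It was 414 and 455 without siFBL replicate 1 or 2 of 12 h. Called genes were mostly well covered: the median was 100700 T positions a library for called genes and 14460 for all genes. The 2464 best covered genes held 25 of the 36 genes called higher and 82 of the 99 called lower, and the 2464 least covered genes 2 and 5. The median SE of the difference was 0.549 over all genes.

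**Figure D3:**
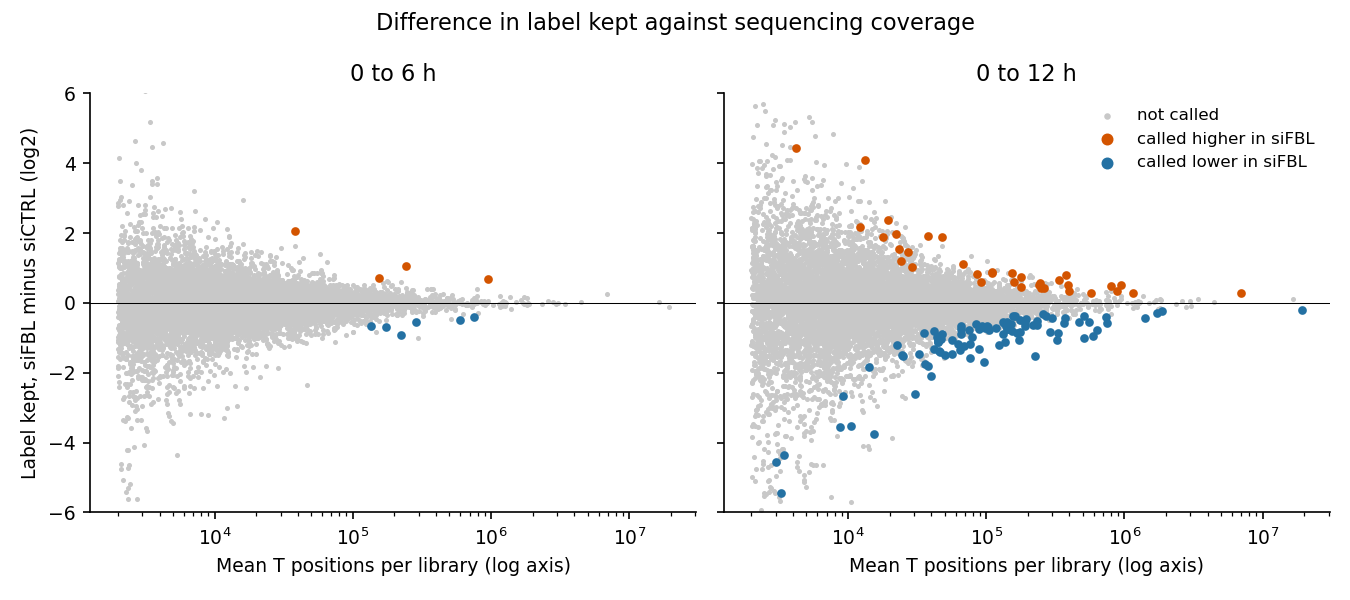
Retention difference (log2, siFBL minus siCTRL) against mean T positions a library (log axis) for each tested gene at 6 h (left) and 12 h (right), with called genes coloured. The spread narrows with coverage, and the 135 genes called at 12 h lie mostly in its well-covered part; 10 genes at 6 h and 89 at 12 h lie outside the plotted range.

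Among called genes with at least 10000 T positions, the largest falls were in MIS18A, THG1L, YY1AP1, STMN1, ITGAE, SETD7, VEZF1 and TCEAL9. STMN1 encodes stathmin, which destabilises microtubules, and had the most precise of these differences. Its rate was 9.97% and 11.6% at 0 h, 5.31% and 4.69% at 6 h, and 1.38% and 1.45% at 12 h with siFBL. With siCTRL it was 9.81% and 10.6%, then 11.0% and 8.73%, then 5.56% and 6.50%. These unscaled rates overlapped between the groups at 0 h and lay apart at 6 and 12 h. By 12 h siFBL libraries had kept 13.1% and siCTRL libraries 59.1% of the 0 h rate. The scaled rate of STMN1 at 0 h was 0.40 higher on the log2 scale with siFBL (not called).

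The STMN1 difference at 12 h was -2.08 (SE 0.21, edgeR adjusted p = 0.000199), and it passed the threshold in 23 of 24 alternative settings. Its read level was also lower with siFBL, at 33.7, 20.4 and 18.0 RPM at 0, 6 and 12 h, against 98.5, 54.2 and 31.2 with siCTRL. The interval at chr1:25900116-25901015 overlaps no coding sequence. MIS18A, which helps load the centromeric histone, was at 0.00987% and 0.0264% at 12 h with siFBL and at 0.573% and 0.390% with siCTRL (-3.74, SE 0.75, edgeR adjusted p = 0.0288). Its interval held 15400 T positions a library on average, so siFBL rates this low rest on few conversions. At 6 h the MIS18A and THG1L differences had the other sign (1.10 and 0.71, neither called).

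THG1L, which adds a guanosine to histidine tRNA, differed by -3.52 (SE 0.70, edgeR adjusted p = 0.0266). YY1AP1 differed by -2.61, ITGAE, an integrin alpha chain, by -1.82, SETD7, a lysine methyltransferase, by -1.81, VEZF1, a zinc finger factor of endothelial development, by -1.76 and TCEAL9 by -1.69. Among these, SETD7 kept 3.91% and 6.79% with siFBL and 20.4% and 19.8% with siCTRL, and VEZF1 kept 2.09% and 1.92% with siFBL and 7.22% and 7.16% with siCTRL. The groups lay apart in all 8 genes, as they did in each of the 135 called genes and in 42.4% of all genes tested.

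Among called genes with at least 10000 T positions, the largest rises were in ZNF532, GTPBP3, CROT, METTL23, APPBP2, DUSP9, NELFA and MCM7. ZNF532, a zinc finger gene, was at 0.756% and 0.556% at 12 h with siFBL and at 0.0198% and 0.0729% with siCTRL (4.08, SE 0.70, edgeR adjusted p = 0.0135). Its interval held 13200 T positions a library on average, so siCTRL rates this low rest on few conversions. GTPBP3, which modifies mitochondrial tRNA, differed by 2.38, CROT, a peroxisomal carnitine acyltransferase, by 2.18, and METTL23, a methyltransferase, by 1.97. GTPBP3 and METTL23 were lower at 6 h in both siFBL libraries (-0.72 and -0.81, neither called), so their higher retention was seen at 12 h and not at 6 h. DUSP9, a phosphatase of MAP kinases, kept 30.3% and 28.7% with siFBL and 6.52% and 10.1% with siCTRL (1.89, SE 0.39, edgeR adjusted p = 0.0346). MCM7, a subunit of the replicative helicase, kept 34.9% and 26.8% with siFBL and 10.5% and 11.9% with siCTRL (1.54, SE 0.33, edgeR adjusted p = 0.0390), and NELFA, a subunit of the negative elongation factor, differed by 1.88.

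The scaled amount of labelled RNA, scaled rate times read level, moved with the scaled rate in nearly all called genes. It contains that rate and so is not an independent measure. Its change to 12 h was lower with siFBL in 98 of the 99 genes with lower retention (median -0.97) and higher in 32 of the 36 with higher retention (median 0.50), against a median of -0.12 over all genes. Among genes called higher, it differed by 0.12 for NEAT1 and by -0.04 for RPS3, where the scaled rate differed by 0.50 and 0.48. Read levels at 0 h come from the same libraries as the rates and are not independent of them. With siFBL these levels were higher by a median of 0.31 on the log2 scale in the genes called higher, and by -0.17 in those called lower, against 0.09 in all genes. In siCTRL cells 42 of the 99 genes called lower and 10 of the 36 called higher lost label more slowly than the library as a whole, as did 22.2% of all genes; the siCTRL loss is itself a term of the retention difference, so nothing is read from this.

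Short windows of the measured 3′ intervals are shown for some of the named genes called at 12 h whose interval holds TGTANATA, the recognition element of Pumilio proteins, which lead mRNAs to decay. They are read 5′ to 3′ on the transcript strand from GENCODE release 29 (GRCh38), and capitals mark the motif.
ATF4: aatgtgctTGTACATAgagtgctg
CDKN1A: cctcctcaTGTACATAccctggcc
HNRNPDL: tgtccaacTGTATATAgctgccaa
VEZF1: tttggagaTGTAAATAttgctcag
ZNF532: aaagagttTGTATATAtttaaatg
NEAT1: ttacgtcaTGTACATAattactaa

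The windows lie at chr22:39522624-39522647 (ATF4, plus strand), chr6:36685919-36685942 (CDKN1A, plus), chr4:82424751-82424774 (HNRNPDL, minus), chr17:57973801-57973824 (VEZF1, minus), chr18:58984654-58984677 (ZNF532, plus) and chr11:65426453-65426476 (NEAT1, plus). Retention at 12 h was lower with siFBL in the first 4 genes and higher in ZNF532 and NEAT1. NEAT1, with 6 matches, held the most of the named genes; SETD7, CKS2 and HNRNPC, all with lower retention, also held the motif and are not shown. Over the intervals with a sequence, TGTANATA was found in 33.8% of 77 genes called lower, 16.1% of 31 called higher and 28.7% of all 8054, searched on the transcript strand only. The AU-rich element TATTTAT, which contains the pentamer ATTTA, was found in 28.57% of the genes called lower, 29.03% of those called higher and 34.29% of all. Intervals of genes called higher were shorter, with a median of 688 bases, against 1433 for those called lower and 1432 for all.

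The TATTTAT element is shown in GDF15 and GULP1, with lower retention, and in GTPBP3, with higher retention, as windows at chr19:18389040-18389062, chr2:188594605-188594627 and chr19:17341978-17342000, all on the plus strand. It was also held by HNRNPC, with lower retention, and by NEAT1 and ZNF532, with higher retention, which are not shown.
GDF15: aacagctgTATTTATataagtct
GULP1: atttagagTATTTATtagtaaat
GTPBP3: tagtttttTATTTATtttgcaaa

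Among lists of genes with a shared role, the integrated stress response and the targets of nonsense-mediated decay held 3 called genes each. All had lower retention, where 1.37% of all genes were called and 1% called lower. ATF4 is 1 of the 3 in both lists, which also share members that were not called. Calls were more frequent in well covered genes, so list shares set beside all genes are not matched for coverage. Of 27 stress response genes tested the 3 called were ATF4, PSAT1 and NUPR1, and none was called higher (edgeR). PSAT1, an enzyme of serine synthesis and a target of ATF4, kept 5.44% and 4.02% with siFBL and 11.4% and 10.4% with siCTRL (-1.12, SE 0.18, edgeR adjusted p = 0.00791). NUPR1, a stress-induced chromatin protein, kept 21.1% and 26.3% with siFBL and 39.9% and 40.8% with siCTRL (-0.68, SE 0.14, edgeR adjusted p = 0.0291). Over the whole list 16 differences were below 0 and 11 above, with a median of -0.08, near that of all genes. DESeq2 called 8 of the list, of which 2 were higher, beside 756 of all 9855 genes. Limma called 0 of the list, beside 62 of all genes.

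Of 19 targets of nonsense-mediated decay the 3 called were ATF4, HNRNPDL and SRSF2. HNRNPDL and SRSF2 encode RNA-binding proteins that limit their own mRNA through such decay of alternative isoforms. HNRNPDL kept 9.94% and 8.99% with siFBL and 20.7% and 15.9% with siCTRL (-0.86, SE 0.14, edgeR adjusted p = 0.00791). SRSF2 kept 16.9% and 13.3% with siFBL and 30.3% and 35.5% with siCTRL (-1.05, SE 0.20, edgeR adjusted p = 0.0258). The median of the list was -0.26, with 12 genes below 0 and 7 above. DESeq2 called 3 of the list, all lower, and limma 0.

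Among 29 p53 targets, 3 were called, all lower, beside 1% of all genes called lower. Over the list 18 differences were below 0 and 11 above, with a median of -0.09. DESeq2 called 8, of which 2 were higher, and limma 0. CDKN1A, the cyclin-dependent kinase inhibitor p21, was at 3.44% and 3.34% at 6 h and 1.12% and 1.15% at 12 h with siFBL, against 4.16% and 4.15%, and 1.88% and 1.97%, with siCTRL. It kept 13.8% with siFBL and 17.8% with siCTRL at 12 h (-0.28, SE 0.050, edgeR adjusted p = 0.0173), while at 6 h its siFBL libraries had kept more (0.17, not called). GDF15, a secreted stress cytokine with the deepest coverage of the named genes, kept 6.52% and 6.54% with siFBL and 7.97% and 7.83% with siCTRL (-0.19, SE 0.032, edgeR adjusted p = 0.0131). TNFRSF10B, the death receptor DR5, kept 3.31% and 2.44% with siFBL and 6.89% and 7.37% with siCTRL (-1.24, SE 0.21, edgeR adjusted p = 0.0129). Scaled labelled amounts changed to 12 h by 0.06 more with siFBL for GDF15 and by -0.02 for CDKN1A, near 0 in both, whose read levels changed by 0.25 and 0.26 more. CDKN1A levels were higher with siFBL throughout, at 4912, 3848 and 1497 RPM at 0, 6 and 12 h against 3019, 2364 and 766.7 with siCTRL.

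Other lists held at most 2 calls, or between 0% and 5.26% of their tested members, against 1.37% of all genes. Of 69 ribosomal protein genes RPS3 rose by 0.48 and RPL5 fell by 0.43; of 48 respiratory chain genes UQCRB, of complex III, fell by 0.40; of 21 G2/M genes CKS2, a subunit of cyclin-dependent kinases, fell by 0.61. Of 57 genes of mRNA decay LSM3, of the ring that binds deadenylated mRNA ends, kept 33.6% and 33.7% with siFBL and 61.8% and 58.9% with siCTRL (-0.76, SE 0.089, edgeR adjusted p = 0.000682). LSM3 passed the threshold in 23 of 24 alternative settings, more than most named genes. Its scaled rate at 0 h was also higher with siFBL (0.34, edgeR adjusted p = 0.0276). Of 35 genes of RNA methylation and its readers HNRNPC kept 50.3% and 50.2% with siFBL and 64.8% and 66.6% with siCTRL (-0.30, SE 0.064, edgeR adjusted p = 0.0362).

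The median of 21 G2/M genes was -0.61, with 14 below 0 and 7 above. It was -0.70 without scaling and -0.60 with median scaling. In the main fit that median is the value of CKS2. Many members were thinly covered with a wide SE, such as CDC20 (-9.75, SE 3.32) and CDC25C (6.10, SE 1.95), neither called. CKS2 kept 23.3% and 21.5% with siFBL and 34.5% and 37.8% with siCTRL (edgeR adjusted p = 0.0204). The 38 short-lived mRNAs kept a median of 3.12% with siFBL and 2.64% with siCTRL, with a median difference of 0.28 and 23 above 0. The 0 h rate is a term of this difference. At 0 h the scaled rates of these 38 mRNAs differed by a median of -0.45, against -0.08 for all genes, with 33 below 0. None of them was called by edgeR; 6 had an unadjusted p below 0.05, all higher, DESeq2 called 3 and limma 0. Over all 9855 genes 1377 had an unadjusted p below 0.05, DESeq2 called 756 and limma 62. The 18 hosts of small nucleolar RNAs had 15 differences below 0 and a median of -0.13, with no call by edgeR, 4 genes at an unadjusted p below 0.05, 3 calls by DESeq2 and 0 by limma.

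Genes of the snoRNP itself gave no call at either hour. NOP56 was at 0.618% and 1.06% at 12 h with siFBL and at 2.17% and 3.95% with siCTRL, groups that do not overlap. It kept 8.30% with siFBL and 24.8% with siCTRL, but the interval holds 11140 T positions a library on average and the difference of -1.52 had an SE of 0.49 (edgeR adjusted p = 0.168). DESeq2 called it. Of 54 genes of ribosome biogenesis edgeR called 0 at 12 h, with a median of -0.04, 10 at an unadjusted p below 0.05 (5 in each direction), 5 calls by DESeq2 and 0 by limma. The matching counts over all 9855 genes were 1377 unadjusted, 756 by DESeq2 and 62 by limma.

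**Figure D4:**
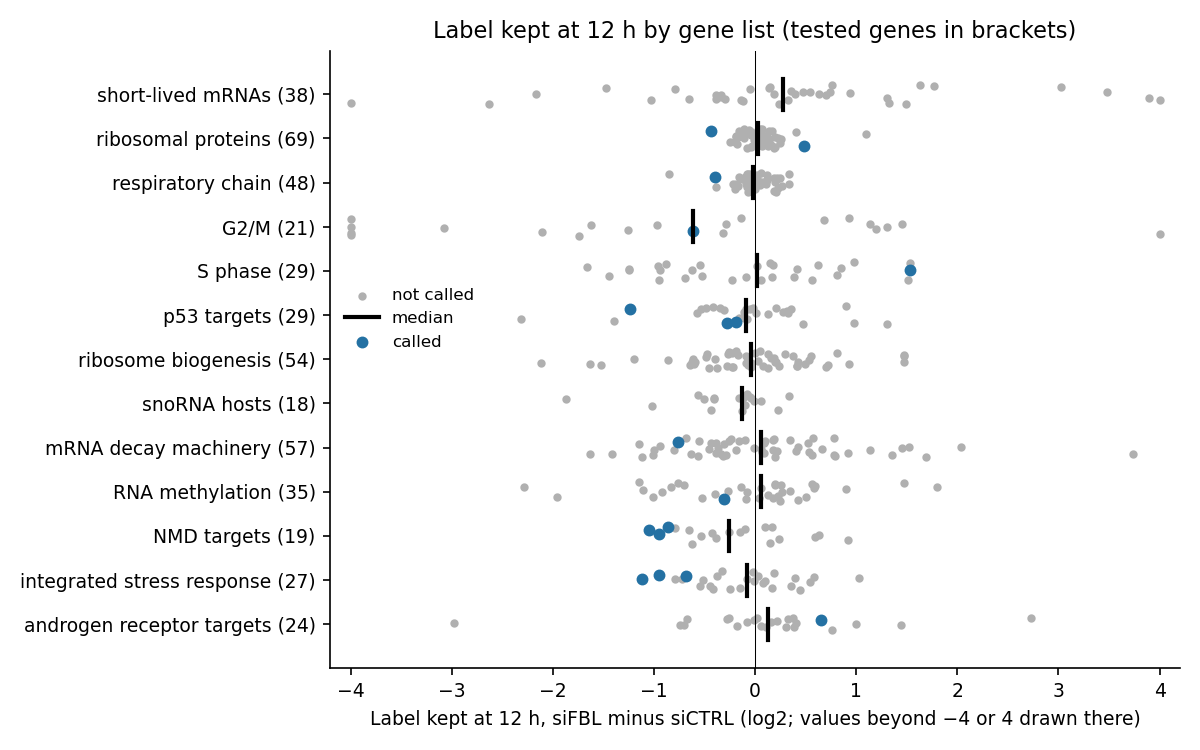
Retention difference at 12 h (log2, siFBL minus siCTRL) for the tested genes of each list, with 1 point per gene, the list median as a bar and called genes coloured; values beyond 4 in either direction are drawn at the edge. Most lists centre near 0, the G2/M median lies at -0.61, and the called stress response, p53 and nonsense-mediated decay genes all lie below 0.

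Before the chase began the label was spread differently over genes. At 0 h 44 of 9855 genes were called (0.446%), 40 with a higher scaled rate after FBL knockdown (0.406%) and 4 with a lower one (0.0406%), with 250 at an unadjusted p below 0.05. Ribosomal protein genes made up 20 of the 40, which is 20 of the 69 tested, with none lower. Their median was 0.20 against -0.08 for all genes, and 67 of 69 were above 0. RPS3, of the small subunit, was at 2.32% and 2.19% with siFBL and at 1.71% and 1.83% with siCTRL (0.67, edgeR adjusted p = 0.000288), and RPL5, which binds 5S ribosomal RNA, at 5.70% and 5.68% with siFBL and 4.66% and 4.93% with siCTRL (0.57, edgeR adjusted p = 0.000771).

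This difference is one of proportion, since the overall rate was lower with siFBL. The median unscaled rate of ribosomal protein genes was 4.30% and 4.39% with siFBL and 4.73% and 4.66% with siCTRL. Without scaling 2 of the 69 were called higher and 10 lower, with a median of -0.13 beside -0.40 for all genes; with median scaling 35 were higher and 0 lower. The count was 4 without siCTRL replicate 2 of 0 h, 10 without siCTRL replicate 1, and 8 and 10 without siFBL replicate 1 or 2 of 0 h; it was 0 by limma and 35 by DESeq2. Reads over the same genes were fewer, with 81580 and 83860 RPM in sum with siFBL and 101300 and 100600 with siCTRL. Levels were lower in 66 of 69 of them, with a median of -0.30, and in 3751 of all 9855 genes.

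UQCRB was likewise higher at 0 h (4.16% and 4.22% with siFBL, 3.28% and 3.46% with siCTRL; 0.64, edgeR adjusted p = 1.18e-05). The 4 genes with a lower scaled rate included, named after their values were seen, the metallothionein MT2A and the mitochondrial ribosomal RNAs MT-RNR1 and MT-RNR2. MT-RNR2 was at 0.9837% and 0.9993% with siFBL and at 1.501% and 1.489% with siCTRL (-0.27, edgeR adjusted p = 2.95e-05). MT-RNR1 was at 1.05% and 1.08% with siFBL and at 1.66% and 1.66% with siCTRL (-0.32, edgeR adjusted p = 0.00525). Rates of both mitochondrial RNAs were thus low at the outset and lower again with siFBL.

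**Figure D5:**
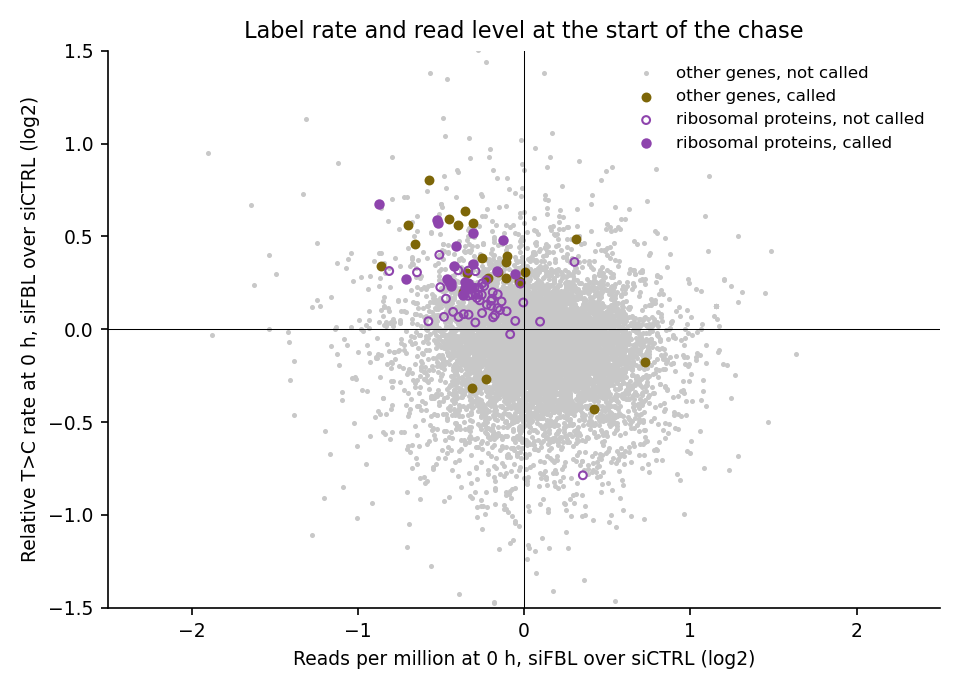
Scaled T>C rate at 0 h (log2, siFBL over siCTRL, vertical axis) against the read level at 0 h (log2 of RPM, siFBL over siCTRL, horizontal axis), with 1 point per tested gene, ribosomal protein genes in purple and called genes filled. Ribosomal protein genes gather where the scaled rate is higher and the read level lower with siFBL, with 67 of 69 above 0 in rate and 66 of 69 lower in level; 15 genes lie outside the plotted range.

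Ribosomal protein mRNAs kept their label best among the lists. They kept a median of 89.6% at 6 h and 81.5% at 12 h with siFBL, against 92.9% and 85.7% with siCTRL, and respiratory chain mRNAs kept 71.4% with siFBL and 75.7% with siCTRL at 12 h. RPS3 showed no loss of rate, with 143.1% and 121.0% kept at 12 h with siFBL and 101.8% and 98.3% with siCTRL (0.48, SE 0.095, edgeR adjusted p = 0.0258). RPL5 kept 65.2% and 61.1% with siFBL and 94.5% and 86.4% with siCTRL (-0.43, SE 0.093, edgeR adjusted p = 0.0386). UQCRB kept 68.1% and 67.3% with siFBL and 94.4% and 94.8% with siCTRL (-0.40, SE 0.060, edgeR adjusted p = 0.00605). The RPS3 difference turned to -2.05 in limma after a background rate was subtracted, and whether its rate holds T>C differences other than label was not tested.

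Whether FBL binds an mRNA was measured in 4 other libraries of siCTRL-treated C4-2 cells by RNA immunoprecipitation (RIP) with an FBL antibody, 2 against 2 of input, with no control antibody. Genes with an edgeR adjusted p below 0.05 and a log2 above 1 were taken as enriched, and below -1 as depleted. Of 2073 enriched genes 8 were called higher and 15 lower at 12 h, or 1.11%, and of 2244 depleted genes 9 and 25, or 1.52%, close to the 1.37% of all genes. Median retention differences were -0.01 in both classes. Enriched genes were 15.2% of the genes called lower and 22.2% of those called higher, against 21.0% of all genes.

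Among the named genes ATF4 (0.81), EID1 (0.90) and GDF15 (0.95) lay above their input on the log2 scale without reaching the limit of 1. SETD7 (1.99), SRSF2 (1.11) and FASTK (1.06) exceeded it, and LSM3 (-2.53), CKS2 (-3.49) and RPS3 (-1.96) were depleted. Depleted genes lost label more slowly in both groups: they kept a median of 17.7% with siFBL and 19.3% with siCTRL at 12 h, and enriched genes 8.28% with siFBL and 9.14% with siCTRL.

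A second measure of loss came from 16 other C4-2 libraries, a read count time course over 12 h whose purpose the labels give as mRNA half-life. Across 8919 genes the 2 measures ranked genes alike within each siRNA, with Spearman's rho of 0.713 with siFBL and 0.767 with siCTRL, a description over genes that share libraries and expression level. For the differences between siRNAs rho was 0.017. Slopes are log2 changes per hour of normalised counts, so a lower slope with siFBL is a faster fall or a slower rise. Among genes called lower at 12 h in SLAM-seq 51 of 92, or 55.4%, had a lower slope with siFBL in the time course, against 47.6% of all genes. Among those called higher 18 of 35, or 51.4%, had a higher one, against 52.4% of all.

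None of the 127 genes called at 12 h and measured in both was called for its slope by edgeR, 8 having an unadjusted p below 0.05, and over 23437 genes of the time course 1 was called and 1117 had an unadjusted p below 0.05. For ATF4 the slope difference was -0.08 log2 per hour (edgeR adjusted p = 0.472). In the G2/M list, whose median retention was lower, the slope was lower with siFBL in 20 of 21 genes. It was also lower in 29 of 38 short-lived mRNAs, whose median retention was higher (0.28), and in 55 of 69 ribosomal protein genes, whose median retention difference was 0.03.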

How the data were processed

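The 12 SLAM-seq libraries of C4-2 cells were counted by the authors with slamdunk 0.4.3, per the file headers, on hg38; the submitters' processing notes also name Trim Galore. The deposited values used here are counts of reads, of reads with T>C conversions, of sequenced T positions and of conversions per 3′ interval. A deposited normalised read column was treated as a score and served only to find the mapped reads of each library. Of 117417 intervals 18327 repeat an earlier line; for each gene name the interval with the highest read count over all files was taken, which 94 names share with another name, and 12 called genes have an interval that other genes overlap. RIP and time-course values are whole-number read counts per gene that the authors deposited, with strand use not given in the sources used here. No molecular identifiers are stated, so precision from counts covers counting error only.

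Conversions were fitted with edgeR 4.0.16 in R 4.3.3, with the log of T positions times the overall rate of the library as offset and 1 mean per siRNA and hour over the 12 libraries. RPM are reads per M mapped reads. Scaled labelled amounts add 0.5 to these and use the rate divided by the overall rate of the library. Replicate numbers did not pair the libraries (correlations of deviations -0.0165 to 0.0399), and replicates differed by more than counting noise. Alternatives were DESeq2 1.42.0, limma 3.58.1 on log2 rates plus 1e-04, T>C read shares, other scalings, filters and intervals, labelled hours, a replicate block, and each library left out. The script was tested on simulated data. RIP was tested with edgeR against input, and time-course slopes as the interaction of siRNA and hour. Named genes are the 8 called genes with the largest difference in each direction and hour among those with at least 10000 T positions, up to 4 called genes of each list, FBL and NOP56. Members and lists were chosen with earlier results of these data known. Some called genes are not reported here. Libraries of 24 h were left out of the comparisons.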

Additional observations from a re-analysis of the deposited data

Results flagged for a closer look

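In 15 differences between siRNAs a gene lost label faster than its library in one group and more slowly in the other, with each of these and the difference between them called by edgeR (log2 differences, siFBL minus siCTRL). The library stands here for its overall rate, and most genes fell faster than that. The median relative loss of all genes to 12 h was -1.22 with siFBL and -1.22 with siCTRL. Falling faster than the library is thus not falling faster than the median gene. At 6 h the flagged genes were EID1 (-0.53) and ACTG1 (-0.41). With siFBL both fell faster than the library (-0.16 and -0.24) and with siCTRL more slowly (0.37 and 0.16). At 12 h STMN1 (-2.08) had relative losses of -0.97 with siFBL and 1.12 with siCTRL, and ITGAE (-1.82) of -0.79 and 1.03. ARPC3 (-1.38), a subunit of the actin-nucleating Arp2/3 complex, and CBX3 (-1.20), a heterochromatin protein, were at -0.81 and -0.63 with siFBL and at 0.57 and 0.57 with siCTRL.

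The same held for JTB (-1.05), PPCS (-1.03), SEC11A (-0.67), C1orf43 (-0.63), CKS2 (-0.61), EIF1 (-0.42) and HSP90AB1 (-0.23), all slower than the library with siCTRL and faster with siFBL. Only TMED9 (0.80), which carries cargo between endoplasmic reticulum and Golgi, and FASTK (0.85) ran the other way. TMED9 kept 31.5% with siFBL and 19.1% with siCTRL. The lowest share kept with siFBL among the genes flagged at 12 h was 13.1%, in STMN1, against a median of 11.1% over all genes. At 6 h EID1 kept 41.4% and ACTG1 39.0% with siFBL, against a median of 32.4% over all genes. Read levels at 0 h were lower with siFBL for STMN1 (-1.53), ARPC3 (-0.90) and JTB (-0.72) and higher for TMED9 (0.58) and FASTK (0.68), but also higher for HSP90AB1 (0.30), whose retention was lower; their part in these differences was not tested.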

How the results depend on the processing

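The counts of genes called are given for 6 h, 12 h and 0 h in this order, against 10, 135 and 44. DESeq2 called 88, 756 and 146, the share of T>C reads 17, 230 and 70, summed intervals 2, 61 and 24, and limma on log2 rates 0, 62 and 0. Limma after background subtraction gave 57 at 12 h and 28 at 0 h. Leaving out intervals with a pooled rate above 5% gave 5 at 6 h and 41 at 12 h. At 0 h no scaling gave 573 and median scaling 106. Labelled hours gave 0, 0 and 0. All 135 genes of 12 h were among the DESeq2 calls and 27 among those of limma on log2 rates. Leaving out 1 library gave 0 to 16 at 6 h, 27 to 455 at 12 h and 12 to 54 at 0 h. The fit with a replicate block gave 8, 102 and 39 calls, 99 of the 102 shared; the numbers do not pair the libraries. An alternative chosen after seeing the data, leaving out intervals whose 24 h rate exceeds 5%, gave 10, 135 and 44. The overall difference was -0.0926 and -0.133 at 6 and 12 h for T>C read shares.

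Other named results passed less often than NEAT1, STMN1, LSM3, UQCRB and the 12 h result of ATF4: APPBP2 at 12 h in 6 of 25 settings, NELFA in 8, RPL5 in 10 and ITGAE in 10 of 24, and at 6 h FASTK in 9 and ATF4 in 13 of 25. Of 42 named results, 36 missed the threshold in limma on log2 rates and without siCTRL replicate 2 of 0 h, and 10 with the replicate block. With labelled hours the 12 h differences turned round for ZNF532 (-0.39), GTPBP3 (-0.11), CROT (-0.21), METTL23 (-0.19), NELFA (-0.16), MCM7 (-0.45), MIS18A (0.18), THG1L (2.14), YY1AP1 (0.24), STMN1 (0.11), ITGAE (0.37), SETD7 (0.79), TNFRSF10B (0.14), HNRNPC (0.0919), PSAT1 (0.0311) and NUPR1 (0.0386). By the sample labels, 0 h and 12 h each mix files named for 0 h and for 24 h. That contrast compares like mixtures, so nothing is read from its signs. RPS3 was -2.05 in limma after background subtraction, and the cause was not tested. The main limits are 2 libraries a group, 0 h libraries shared by both hours, and coverage, with a median SE of 0.549 at 12 h.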

Other observations

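The 4 SLAM-seq libraries whose files are named for 24 h entered no comparison. Their overall T>C rate was 0.244% and 0.253% with siFBL and 0.841% and 0.859% with siCTRL, so the relative gap between siFBL and siCTRL was wider than at 0, 6 or 12 h.

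In the interval of FBL, conversions were 169 and 219 of 669 and 887 T positions in the siCTRL libraries of 0 h, and 10 and 144 of 44 and 644 in those of 12 h. The rate of this thinly covered interval was far above the overall rate at both hours.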
